A study of Homo sapiens with 6 samples.

Results

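The mRNAs of 10 transcription factors of granulocyte and monocyte commitment, SPI1, CEBPA, CEBPD, CEBPE, IRF8, GFI1, RUNX1, KLF4, EGR1 and GATA2, were followed in RNA-seq of Molm13 cells. They were chosen by gene symbol as named regulators of this lineage, and all 10 were found among the 19845 symbols of the count table. Molm13 is a human acute myeloid leukemia line, labelled as MLL-rearranged leukemia, and the cells used here also expressed the Cas9 nuclease. The 3 sgCtrl libraries came from cells transduced by lentivirus with control guides, and the 3 sgCOX4I1 libraries from cells given guides against COX4I1, a subunit of mitochondrial Complex IV. Both groups thus carried Cas9 and the ipUSEPR guide vector, which holds a puromycin-resistance gene, and the libraries of a group differed in their guide. The paper describes puromycin selection for its library screens, and its RNA-seq methods do not name a selection. All 6 libraries came from 1 cell line, and the labels give no time after transduction.

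These factors form the network by which a blood progenitor becomes a granulocyte or a monocyte. SPI1 encodes PU.1, an ETS factor that opens myeloid enhancers, and CEBPA encodes the C/EBP protein that starts the granulocyte program, which CEBPE completes in late precursors and CEBPD accompanies. IRF8, a partner of PU.1, KLF4 and EGR1 are known for the monocyte branch, and GFI1 is a repressor that favors neutrophils. RUNX1 and GATA2 act earlier, in stem and progenitor cells, and RUNX1 partners with CBFB. In MLL-rearranged leukemia this network is held in an immature myeloid state.

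Each library held between 17241014 and 30861943 counts. Levels are given as CPM (counts scaled to a common library size), with edgeR's TMM factors, and folds as log2 of sgCOX4I1 over sgCtrl. Each gene was tested by the quasi-likelihood F-test of edgeR, p-values were adjusted by the Benjamini-Hochberg method over the 11861 genes tested, and a gene was called at an adjusted p under 0.05. The 3 sgCtrl libraries held 513, 502 and 463 CPM of COX4I1 mRNA, whereas sgCOX4I1 #1, #2 and #3 held 132, 378 and 133 CPM. The library labelled sgCOX4I1 #2 therefore kept 76.7% of the mean sgCtrl level, against 26.7% and 27.0% in the others, so values without it are given below. COX4I1 itself had a log2 fold change of -1.21 (SE 0.29, adjusted p = 0.0512). Of the myeloid marker list 10 of 10 genes were tested, with a summed level of 2017 to 3041 CPM in sgCtrl and 2840 to 3993 CPM in sgCOX4I1 libraries, and none of them was called. LYZ, at 1149 to 2100 CPM in sgCtrl and 2026 to 3104 CPM in sgCOX4I1, carried that difference, as the other 9 summed to 868 to 942 CPM and 814 to 890 CPM. The 10 markers had a median log2 fold change of -0.044, with 4 above 0 and 6 below. Whether the level of LYZ bears on the results was not tested. No erythroid marker of 8 and no T cell marker of 5 passed the filter on low counts, and the hemoglobin genes were at or near 0. Of 5 B cell markers, PAX5 and EBF1 passed it, while MS4A1 was at 0 in 5 of the 6 libraries, and of 5 megakaryocyte markers GP9 passed it.

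None of the 10 factors was called (0 of 10, where 2.08% of all genes tested were, 1.06% higher and 1.02% lower in sgCOX4I1), and with a change of at least 2-fold added the share over all genes was 0.202%. An unadjusted p under 0.05 was found for 2 of them, CEBPE and KLF4, against 17.3% of all genes. DESeq2 and limma-voom also called 0 of 10, each with 2 at an unadjusted p under 0.05. The groups did not overlap for 3 factors, CEBPE, IRF8 and RUNX1, against 21.6% of all genes, and an exact two-sided permutation test gave each of these p = 0.1, the smallest that 3 against 3 libraries allow. Of the 10 log2 fold changes 3 were above 0 and 7 below, with a median of -0.082 where the median of all genes was -0.0023. Their median absolute size was 0.093, against 0.12 over all genes. These counts measure mRNA and not protein, and a lower share of cells with an mRNA cannot be told apart from less of it per cell.

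**Figure D1:**
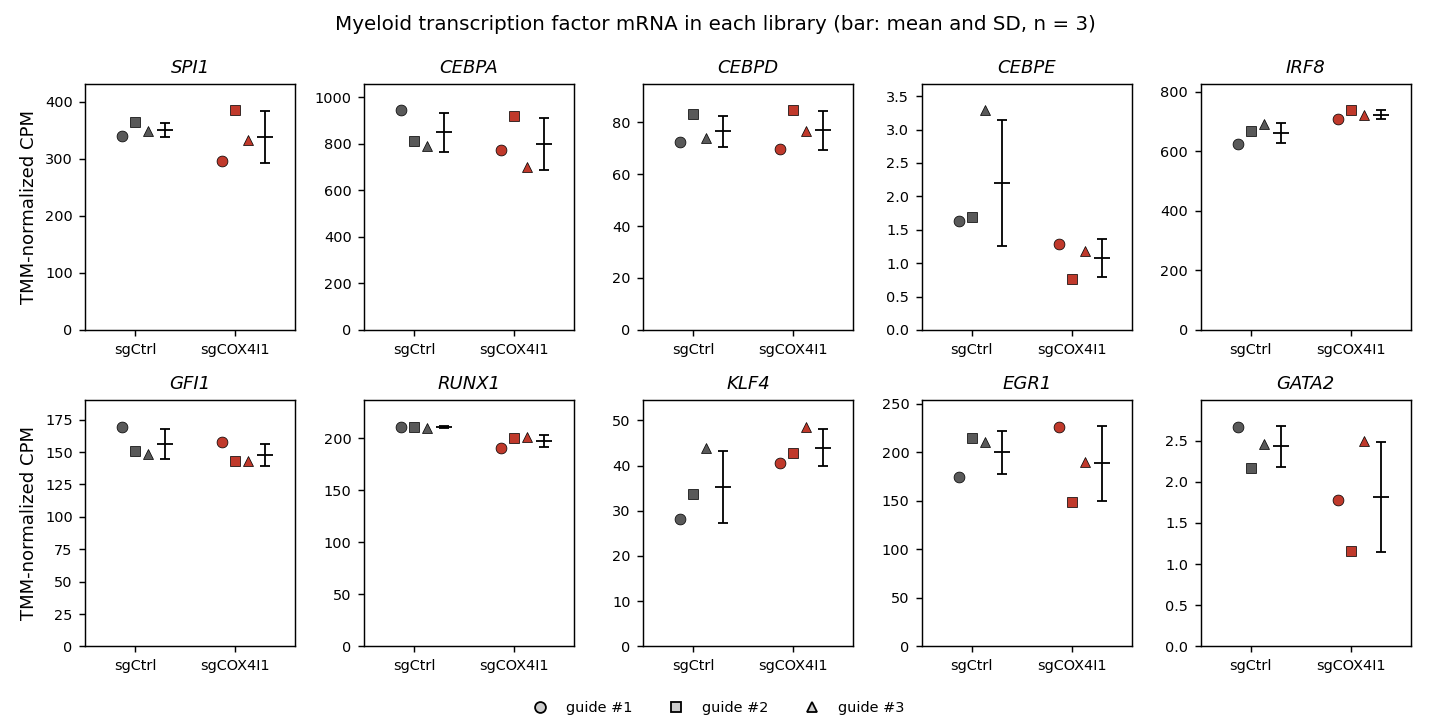
Each panel shows 1 factor, with TMM-normalized CPM on a linear axis from 0 and each library as a point (circle, guide #1; square, #2; triangle, #3; gray, sgCtrl; red, sgCOX4I1). Bars give the mean and SD of 3 libraries, and in CEBPE, IRF8 and RUNX1 all red points lie on 1 side of the gray points.

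The depth behind these values differed widely. In every library 7 of the 10 factors had at least 1000 counts, and for the same number the 95% interval of the log2 fold change lay within 0.5 of 0, as it did for 71.2% of all genes. It lay within 1 of 0, a change of less than 2-fold, for 8 of 10 factors and for 91.1% of all genes. The exceptions were CEBPE, with 13 to 67 counts per library, and GATA2, with 20 to 78. Standard errors (SE) of the log2 fold changes ran from 0.068 for RUNX1 to 0.35 for CEBPE.

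SPI1, at chr11:47354860-47378547 on the minus strand (GRCh38, GENCODE 44), was 340, 365 and 349 CPM in sgCtrl #1, #2 and #3. It was 296, 386 and 333 CPM in sgCOX4I1 #1, #2 and #3. The sgCtrl values lay inside the range of the sgCOX4I1 values, whose highest was in #2, the library with the most COX4I1 mRNA. This gave a log2 fold change of -0.055 (95% interval -0.25 to 0.14, adjusted p = 0.806), which became -0.16 (adjusted p = 0.439) when sgCOX4I1 #2 was left out.

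CEBPA, a gene of a single exon at chr19:33299934-33302534 on the minus strand, had the highest mean CPM of the 10 in both groups. It was 946, 811 and 791 CPM in the sgCtrl libraries and 774, 921 and 700 CPM in the sgCOX4I1 libraries. The groups overlapped, with the highest value in sgCtrl #1 and the lowest in sgCOX4I1 #3. Its log2 fold change was -0.089 (95% interval -0.32 to 0.14, adjusted p = 0.721), or -0.20 without sgCOX4I1 #2. Of its exonic bases 43.9% are also annotated to genes on the opposite strand. The library kit was directional but the strand setting of the counting was not given, so reads of the 2 strands there may not be separated.

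CEBPD, an acute phase and stress responsive C/EBP gene of a single exon, was the factor with the least difference between groups. It was 72.3, 83.1 and 73.9 CPM in sgCtrl against 69.7, 84.7 and 76.4 CPM in sgCOX4I1. Its log2 fold change was 0.0086 (95% interval -0.18 to 0.20, adjusted p = 0.977).

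CEBPE, which drives secondary granule genes in late granulocyte precursors, had the largest fold change of the 10 and rested on few counts. Its level was 1.63, 1.68 and 3.29 CPM in sgCtrl #1, #2 and #3, from 30, 31 and 67 counts. In sgCOX4I1 #1, #2 and #3 it was 1.29, 0.756 and 1.18 CPM, from 29, 13 and 37 counts. All 3 sgCOX4I1 values were below all sgCtrl values, and sgCtrl #3 stood apart from the other two. For CEBPE the log2 fold change was -1.01 (95% interval -1.76 to -0.26, unadjusted p = 0.0121, adjusted p = 0.154). Without sgCtrl #3 it was -0.59 (adjusted p = 0.483). LTF, CAMP and LCN2, secondary granule genes, did not pass the filter on low counts.

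IRF8, which with PU.1 directs monocyte and dendritic cell fate, was 626, 669 and 690 CPM in sgCtrl against 708, 738 and 720 CPM in sgCOX4I1. Every sgCOX4I1 value was above every sgCtrl value, and the gap between sgCtrl #3 and sgCOX4I1 #1 was smaller than the spread within sgCtrl. A log2 fold change of 0.13 resulted (SE 0.077, 95% interval -0.039 to 0.29, adjusted p = 0.428). IRF8, at chr16:85899116-85922606 on the plus strand, is a neighbor of the edited gene, since it begins 92.0 kb past the end of COX4I1. Among the sgCOX4I1 libraries, #2 had the highest level of both IRF8 and COX4I1.

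GFI1, a zinc finger repressor of monocyte genes, was 170, 151 and 148 CPM in sgCtrl against 158, 143 and 143 CPM in sgCOX4I1. In both groups guide #1 gave the highest value, and the ranges overlapped. GFI1 had a log2 fold change of -0.079 (95% interval -0.25 to 0.090, adjusted p = 0.658).

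RUNX1, the DNA-binding subunit of core binding factor, had the closest sgCtrl replicates of the 10 factors. It was 211, 211 and 210 CPM in sgCtrl, an SD of 0.841, and 190, 200 and 201 CPM in sgCOX4I1, an SD of 5.89. All sgCOX4I1 values were lower, by a small amount. For RUNX1 it was -0.096 on the log2 scale (SE 0.068, 95% interval -0.24 to 0.050, adjusted p = 0.503). CBFB, its partner, was 79.1, 68.7 and 65.2 CPM in sgCtrl against 83.7, 79.3 and 73.9 CPM in sgCOX4I1 (log2 fold change 0.15, adjusted p = 0.392).

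KLF4, a zinc finger factor of monocytes that lies at chr9:107484852-107490482, was 28.3, 33.6 and 43.97 CPM in sgCtrl against 40.5, 42.8 and 48.6 CPM in sgCOX4I1. In both groups guide #3 gave the highest value, and sgCtrl #3 lay within the sgCOX4I1 range. KLF4 had a log2 fold change of 0.32 (95% interval 0.031 to 0.60, unadjusted p = 0.0325, adjusted p = 0.233). Leaving out sgCtrl #3 raised it to 0.51, which passed the threshold (adjusted p = 0.0277), and leaving out sgCtrl #1 gave 0.18. Of the exonic bases of KLF4 9.43% are also annotated to a gene on the opposite strand, so the limit given for CEBPA holds there too.

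EGR1, an immediate early factor induced within minutes of a stimulus, was 174, 215 and 211 CPM in sgCtrl against 226, 149 and 190 CPM in sgCOX4I1. Both the highest and the lowest of the 6 values were sgCOX4I1 libraries, and the sgCtrl values lay between them. Its log2 fold change of -0.084 (95% interval -0.35 to 0.19, adjusted p = 0.782) became 0.060 without sgCOX4I1 #2. EGR2, its relative, had a log2 fold change of 0.41 (adjusted p = 0.304) and EGR3 of -0.72 (adjusted p = 0.254).

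GATA2, a factor of stem cells and progenitors, had the lowest level per length. It was 2.67, 2.17 and 2.46 CPM in sgCtrl, from 49, 40 and 50 counts, and 1.78, 1.16 and 2.49 CPM in sgCOX4I1, from 40, 20 and 78 counts. The sgCOX4I1 values of #1 and #2 were below all sgCtrl values, and #3 was within their range. Its log2 fold change was -0.38 (95% interval -1.004 to 0.24, adjusted p = 0.542), which moved to -0.17 without sgCOX4I1 #2 and to -0.70 without sgCOX4I1 #3. GATA1 and GATA3 did not pass the filter on low counts.

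**Figure D2:**
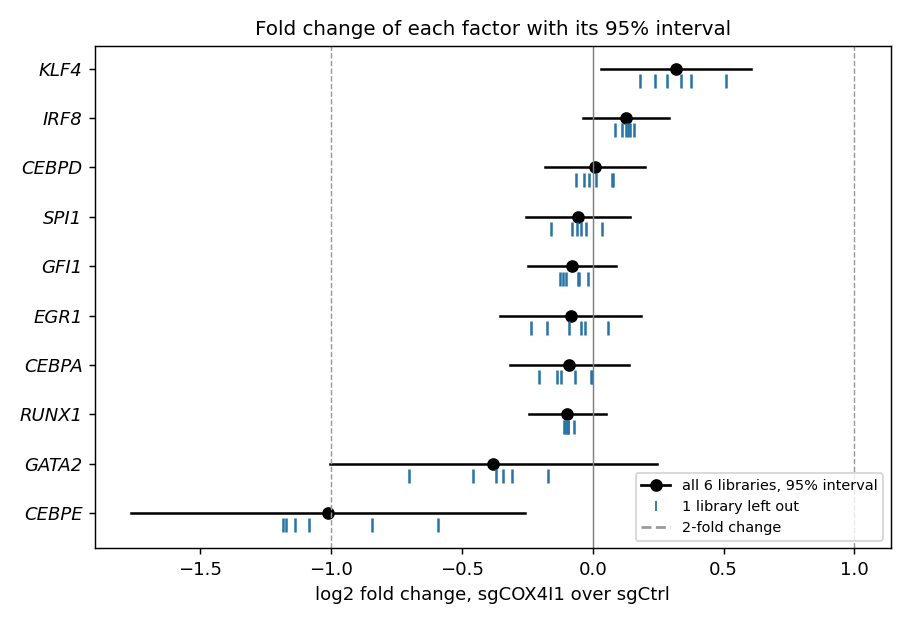
Log2 fold change of sgCOX4I1 over sgCtrl for each factor (black point, 6 libraries; line, 95% interval from edgeR), with blue ticks for the value with 1 library left out and dashed lines at a 2-fold change. The intervals of CEBPE, from -1.76 to -0.26, and KLF4, from 0.031 to 0.60, do not cross 0, although neither passed the adjusted threshold.

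Stretches upstream of start sites are shown for CEBPE and KLF4, the factors with an unadjusted p under 0.05, and for RUNX1, whose sgCtrl replicates lay closest. They are the 250 bases before the start in RefSeq on GRCh38.p14, read 5′ to 3′ on the minus strand of each chromosome, chr14:23119256-23119505 for CEBPE, chr9:107489770-107490019 for KLF4 and chr21:34888700-34888949 for RUNX1. No exon of GENCODE 44 overlaps them, and annotated transcripts span them as intron, 2 for CEBPE, 1 for KLF4 and 7 for RUNX1. The strand of these transcripts was not examined. Each of the genes is annotated to extend farther upstream than its window. Capitals mark matches to the motifs named below.
CEBPE: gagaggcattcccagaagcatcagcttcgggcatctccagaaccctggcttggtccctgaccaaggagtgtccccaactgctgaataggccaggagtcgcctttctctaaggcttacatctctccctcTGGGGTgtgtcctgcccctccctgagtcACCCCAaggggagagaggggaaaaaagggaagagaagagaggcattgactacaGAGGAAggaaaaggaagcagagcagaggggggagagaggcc
KLF4: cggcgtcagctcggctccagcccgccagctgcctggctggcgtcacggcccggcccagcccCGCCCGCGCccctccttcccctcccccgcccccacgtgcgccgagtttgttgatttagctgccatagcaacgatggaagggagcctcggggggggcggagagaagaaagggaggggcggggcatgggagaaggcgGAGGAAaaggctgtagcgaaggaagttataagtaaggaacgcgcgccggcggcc
RUNX1: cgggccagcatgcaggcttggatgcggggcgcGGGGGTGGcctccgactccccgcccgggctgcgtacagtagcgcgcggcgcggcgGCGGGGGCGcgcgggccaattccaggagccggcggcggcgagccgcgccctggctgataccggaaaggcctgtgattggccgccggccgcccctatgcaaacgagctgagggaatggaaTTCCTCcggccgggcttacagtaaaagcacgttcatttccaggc

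Windows of this length were searched on both strands for TTNNGNAA of C/EBP factors, GAGGAA of PU.1, TGNGGT of RUNX, AGATAA of GATA, a pair of GAAA blocks 2 bases apart of IRF, GCGNGGGCG of EGR and GGGNGTGG of KLF factors. The reference held 12 windows for 8 of the 10 factors and none for SPI1 and CEBPD. GAGGAA occurred in windows of 5 of the 8, namely GFI1, GATA2, KLF4, CEBPE and RUNX1, and in 23.4% of the first windows of 27305 genes. In the sequences above it lies 41 bases before the start of CEBPE, 54 before that of KLF4 and, on the other strand, 44 before that of RUNX1. TGNGGT was found for 4, GFI1, GATA2, CEBPE and IRF8, against 37.6% of genes, and CEBPE held it at 122 and 94 bases before the start. GCGNGGGCG was found for EGR1, KLF4 and RUNX1, against 8.25% of genes. GGGNGTGG was found for GFI1, GATA2 and RUNX1, against 15.3%. TTNNGNAA was found for GFI1 alone (33.6% of genes), and AGATAA (9.37%) and the GAAA pair (3.07%) for none of the 8. GFI1 has 3 windows, and GATA2 and IRF8 have 2 each, so they had more than 1 chance of a match. A match describes letters and not binding.

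Divided by the length of the canonical transcript, the factors spanned a wide range of levels. In sgCtrl the mean was 326 CPM per kb for CEBPA, 256 for SPI1 and 248 for IRF8. Next came EGR1 at 63.7 CPM per kb and CEBPD at 61.0, then RUNX1 at 35.3 and GFI1 at 34.3. KLF4 followed at 12.0, and CEBPE at 1.85 and GATA2 at 0.719 were lowest. The most abundant were thus CEBPA, SPI1 and IRF8, and the least abundant CEBPE, a late granulocyte factor, and GATA2, a stem cell factor. EGR1 and KLF4, also known for the monocyte branch, and RUNX1, which also acts in stem and progenitor cells, lay between them. Within this order, SPI1 and IRF8, EGR1 and CEBPD, and RUNX1 and GFI1 had overlapping libraries in both groups and cannot be ordered on this scale. CEBPA and SPI1, and CEBPE and GATA2, overlapped in sgCOX4I1 only. With all annotated exons in place of the canonical transcript, which is the shorter length for most of these genes, RUNX1 (13.5 CPM per kb in sgCtrl) and GFI1 (27.7) changed places. On that scale SPI1 was at 172 and IRF8 at 84.3 CPM per kb, so the standing of IRF8 beside SPI1 and EGR1 depends on the length used.

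The libraries within a group differed in which factors they placed at the extremes. The library sgCOX4I1 #2 had the highest of the 6 values for SPI1, CEBPD and IRF8 and the lowest for CEBPE, GFI1, EGR1 and GATA2, so it was extreme for 7 of the 10 factors, and for 33.2% of all genes. The library sgCtrl #1 was extreme for 6 of 10, highest for CEBPA, GFI1, RUNX1 and GATA2 and lowest for IRF8 and KLF4, and for 34.8% of all genes. For sgCtrl #2 the count was 0. The SD of log2 CPM was higher in sgCOX4I1 than in sgCtrl for 6 factors, with medians of 0.17 and 0.12, where the medians over all genes were 0.12 and 0.13. Without sgCOX4I1 #2, no factor was called, the fold change of COX4I1 was -1.89, and CEBPD (-0.063) and EGR1 changed sign. The other log2 fold changes without it were -0.84 for CEBPE, 0.11 for IRF8, -0.054 for GFI1, -0.11 for RUNX1 and 0.34 for KLF4. The guide and the culture of sgCOX4I1 #2 cannot be told apart in this design.

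Around the factors, 124 related genes in 5 lists were examined. Of these 110 were tested and 9 were called (8.18%), 4 higher and 5 lower, where 2.08% of all genes tested were called. The lists were written with earlier results of these data known, so their counts are descriptions.

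Among 31 relatives of the same DNA-binding families, 25 were tested, and 2 were called higher and 1 lower. Their median on the log2 scale was -0.020. CEBPB, the C/EBP factor of macrophages and of emergency granulopoiesis, rose from 40.9, 39.9 and 47.9 CPM in sgCtrl to 53.7, 81.6 and 64.2 CPM in sgCOX4I1. All sgCOX4I1 values were above the sgCtrl values, and its log2 fold change was 0.63 (SE 0.13, adjusted p = 0.0259). RUNX3, which shares its DNA motif with RUNX1, rose from 22.6, 25.1 and 29.1 to 34.0, 38.7 and 35.7 CPM (log2 fold change 0.49, SE 0.11, adjusted p = 0.0318). IRF7, the factor that amplifies type I interferon production, fell from 31.2, 32.2 and 27.0 to 22.8, 19.4 and 19.7 CPM (log2 fold change -0.55, SE 0.11, adjusted p = 0.0210). Each of these calls was lost without sgCtrl #2, without sgCOX4I1 #2 and without sgCOX4I1 #3, with adjusted p between 0.0522 and 0.220. GFI1B, GATA1, GATA3, ERG, SPIC and IRF4 did not pass the filter.

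**Figure D3:**
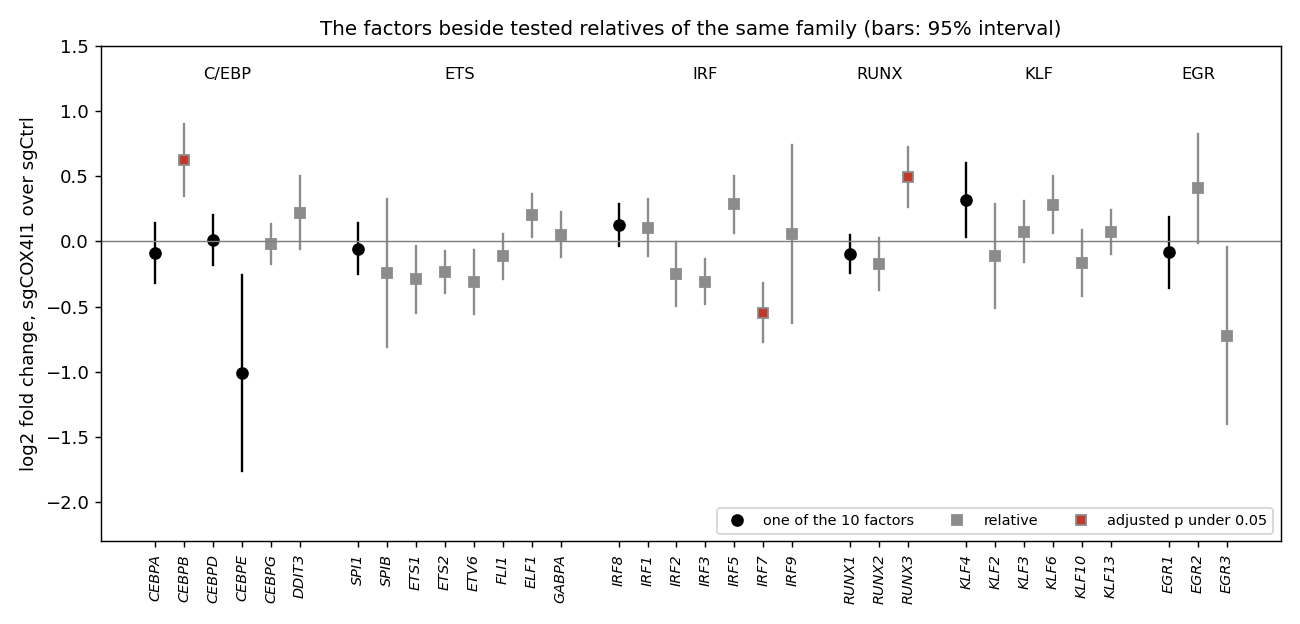
Log2 fold change of sgCOX4I1 over sgCtrl with 95% intervals for the factors (circles) and tested relatives of the same family (squares), with called genes filled red. CEBPB at 0.63, RUNX3 at 0.49 and IRF7 at -0.55 are the called genes, and none of the factors beside them is filled.

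Partners and regulators of the factors gave no call. The 19 listed include the corepressors of GFI1, the NAB corepressors of EGR1 and the LMO2 and LDB1 complex of GATA2. They also include the TRIB1 and FBXW7 proteins that lead to C/EBP degradation. Of the 19, 16 were tested and 0 were called. An unadjusted p under 0.05 was found for 4 of the 16, against 17.3% of all genes. The median was 0.0010, with 8 higher and 8 lower. The smallest adjusted p was that of BATF3, a partner of IRF8 in dendritic cells, at 13.7, 13.6 and 11.6 CPM in sgCtrl against 17.1, 16.4 and 15.2 CPM in sgCOX4I1 (log2 fold change 0.32, SE 0.12, adjusted p = 0.180). DESeq2 and limma-voom each also called 0 of them, with 4 at an unadjusted p under 0.05.

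Genes that the factors are known to activate in granulocytes and monocytes gave calls in both directions. Of 29 listed, 26 were tested, with 2 called higher and 1 lower, 18 above 0 and 8 below, and a median of 0.18. MPO, the peroxidase of primary granules, fell from 228, 219 and 235 CPM to 117, 105 and 106 CPM. S100A8 rose from 26.0, 33.4 and 29.4 to 53.6, 49.8 and 52.6 CPM (log2 fold change 0.81, adjusted p = 0.00115), and S100A9, which encodes its partner in calprotectin, rose from 48.8, 61.0 and 58.5 to 86.6, 98.4 and 98.5 CPM (log2 fold change 0.75, adjusted p = 0.00154). These 3 calls held with each library left out. Other primary granule genes were not called, ELANE at 0.28 (adjusted p = 0.255), PRTN3 at 0.29 (adjusted p = 0.124), CTSG at 0.34 (adjusted p = 0.112) and AZU1 at -0.32 (adjusted p = 0.149). Receptors that the factors regulate were not called either, with log2 fold changes of 0.0065 for CSF1R, -0.18 for CSF3R and 0.091 for CSF2RA.

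Other hematopoietic factors included 25 genes, of which 23 were tested, with a median of -0.047. The call was NFE2, a bZIP factor of the megakaryocyte and erythroid lines that myeloid cells also express, which fell from 104, 96.7 and 101 CPM in sgCtrl to 54.0, 55.5 and 56.9 CPM in sgCOX4I1 (log2 fold change -0.86, SE 0.073, adjusted p = 8.56e-05). The call held with each library left out. MYB, a progenitor factor, was 378, 351 and 358 CPM in sgCtrl against 353, 352 and 349 CPM in sgCOX4I1 (log2 fold change -0.047, adjusted p = 0.784).

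Immediate early genes, the class to which EGR1 belongs, had 2 of 20 called, both lower, and 12 above 0 and 8 below, with a median of 0.025. IER2, a short-lived early response protein, fell from 310, 318 and 310 to 263, 252 and 251 CPM (log2 fold change -0.29), and JUND, a subunit of AP-1, from 790, 775 and 806 to 528, 692 and 481 CPM (log2 fold change -0.48), both with adjusted p = 0.0437. FOS, induced by the same signals as EGR1, was 120, 158 and 195 CPM in sgCtrl against 169, 165 and 192 CPM in sgCOX4I1, and its groups overlapped. IER2 lost its call with each library left out but sgCtrl #1 (adjusted p 0.0639 to 0.220), and JUND with each but sgCtrl #1 and sgCOX4I1 #2 (0.0583 to 0.220).

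**Figure D4:**
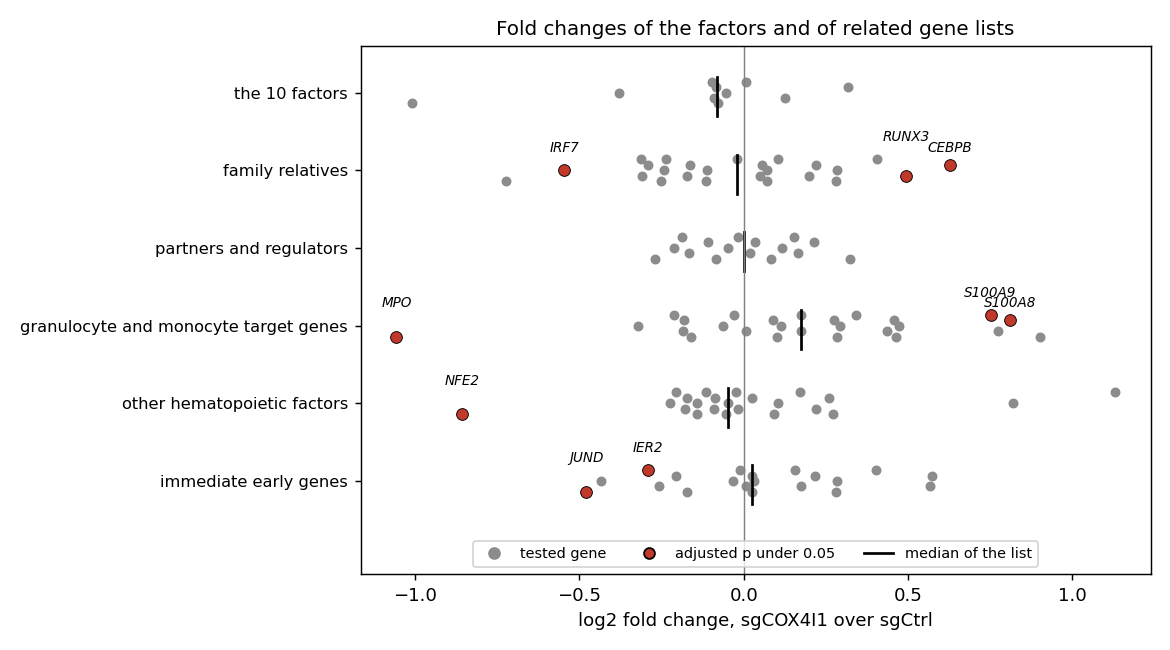
Log2 fold change of sgCOX4I1 over sgCtrl for each tested gene of the 6 lists, 1 point per gene, with called genes in red and named and a black line at each list's median. The 10 factors hold no red point, and the 9 called genes lie between -1.06 for MPO and 0.81 for S100A8.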

How the data were processed

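RNA-seq counts of 6 libraries of Molm13-Cas9 cells were analyzed, 3 sgCtrl and 3 sgCOX4I1, grouped by title. The authors deposited whole-number counts per gene symbol without normalization, with 1 column per library. Submitters' processing notes name bcl2fastq 2.20.0.422, STAR 2.6.0a and GRCh38, and the column names show marked duplicates, whereas the methods name Bowtie2 and RSEM. The annotation and strand setting were not given in the sources used here. Columns were matched by letter, C for sgCtrl and K for sgCOX4I1, and guide number.

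Computed here in R 4.3.3, edgeR 4.0.16 applied TMM, filterByExpr and a quasi-likelihood test with no covariate, with Benjamini-Hochberg adjustment over 11861 genes. Log2 CPM used a prior count of 2. The edgeR, limma-voom and DESeq2 fits were first run on simulated counts. Between replicates the chi-square per degree of freedom was 11.0 to 27.6, so none was a copy. Counting error limits a gene at 0 counts to 0.0972 to 0.174 CPM (3 counts). Nothing in the labels says whether cultures were independent beyond the guide, so p-values measure the spread between these libraries. The alternatives were DESeq2 1.42.0, limma-voom (limma 3.58.1), 2 other scalings, 2 other filters, a replicate block, glmTreat against a fold change of 1.2, and each library left out. Lengths came from GENCODE 44.

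Members and lists were chosen with earlier results of these data known. Named genes are the 10 members, COX4I1, in each list the called genes (at most 6) or the smallest adjusted p, and others chosen after their values were seen (CBFB, EGR2, EGR3, ELANE, PRTN3, CTSG, AZU1, CSF1R, CSF3R, CSF2RA, MYB, FOS, LYZ, CYBB, ITGAM, FCGR1A, TLR2, CYBA, PAX5, EBF1 and genes under the filter).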

Additional observations from a re-analysis of the deposited data

How the results depend on the processing

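The number of genes called depended on the setting. It was 247, and became 437 with DESeq2, 537 without a filter on low counts, 1408 with the replicate block and 35 with glmTreat, and leaving out 1 library gave 24 (without sgCtrl #2) to 561 (without sgCtrl #1). Of the 10 factors 0 were called, also with DESeq2, limma-voom, both other scalings, both other filters and glmTreat. The replicate block called 2 of 10, CEBPE (-1.02, adjusted p = 0.0445) and KLF4 (0.33, adjusted p = 0.0130), where it called 11.9% of all genes. Leaving out 1 library gave 0 to 1 (KLF4 without sgCtrl #3, where 2.21% of all genes were called). The numbers mark different guides, and deviations of libraries with the same number correlated at 0.38, -0.024 and 0.29. The closest sgCOX4I1 library was #1 for sgCtrl #1, and #3 for both sgCtrl #2 and sgCtrl #3. Whether libraries of the same number shared a culture or a batch is not given by the labels and was not tested. Of the related genes 9 were called, against 17 without a filter, 36 with the replicate block, 4 with glmTreat and 4 to 16 with 1 library left out. Over all genes the shares called were 2.08% in the main fit, 3.54% without a filter and 11.9% with the replicate block. They were 0.295% with glmTreat and 0.200% to 4.66% with 1 library left out. Of 140 refits of single factors 132 kept direction and side of the threshold and 5 reversed, all with 1 library left out, in SPI1 (-0.16 to 0.034), CEBPD (-0.063 to 0.076) and EGR1 (-0.23 to 0.060). The cause of these changes was not tested. The groups did not overlap for 3 factors under both other scalings as well. CEBPE and GATA2 are limited by counts of 13 to 78 per library. With 3 libraries a group, an exact permutation test cannot go below p = 0.1.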

Other observations

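The macrophage genes LYZ and CYBB, chosen after their values were seen, had log2 fold changes of 0.77 (adjusted p = 0.0534 from edgeR) and 0.90 (adjusted p = 0.0610), so neither was called. For both, as for KLF4, sgCtrl #3 was the highest and sgCtrl #1 the lowest of the sgCtrl libraries. Other monocyte and macrophage genes of the same list were near or below 0, with log2 fold changes of -0.16 for ITGAM, -0.062 for FCGR1A, -0.030 for TLR2, -0.21 for CYBA and 0.0065 for CSF1R, none of them called.

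The tested B cell factors lay on opposite sides of 0. PAX5 was 16.8, 18.4 and 16.1 CPM in sgCtrl against 18.7, 21.0 and 21.4 CPM in sgCOX4I1 (log2 fold change 0.25, adjusted p = 0.246 from edgeR). EBF1 was 0.872, 0.760 and 0.835 CPM in sgCtrl, from 16, 14 and 17 counts. In sgCOX4I1 #1, #2 and #3 it was 0.0445, 0.581 and 0.288 CPM, from 1, 10 and 9 counts. Its groups did not overlap, and its log2 fold change of -1.51 (unadjusted p = 0.0175, adjusted p = 0.182 from edgeR) rested on these few counts. Neither was called.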
